A study of Rattus norvegicus with 3 samples.

Results

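Snap91, Ildr2, Mllt11 and Cspg4, genes that have been little described in heart muscle, were followed in cultured ventricular myocytes from newborn rats. They were chosen by their signal intensity, which lay far above that of unstimulated cells on a treated array, Cspg4 with phenylephrine. They are 4 of the 10411 genes that the arrays measured with a probe set of 1 gene symbol, and 5 probe sets carry their symbols. The myocytes were kept in culture for 48 h with 20 µM phenylephrine, with 1 µM PAMH, or with no stimulus. Phenylephrine activates α1-adrenergic receptors and makes cultured cardiac myocytes grow, and PAMH is named by the submitters without a description of the compound. Total RNA was hybridised to 3 rat arrays, 1 for each condition, so no difference has a replicate check and no test was possible. The doses differed, and the 2 treated arrays share 1 unstimulated array, whose own deviations enter both ratios.

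Snap91 encodes AP180, a clathrin assembly protein that binds membrane phosphoinositides and helps to shape the coated pits through which nerve endings take back synaptic vesicles; its widely expressed relative is Picalm. Ildr2 encodes an immunoglobulin-like receptor of the angulin family, whose other members Lsr and Ildr1 lie where 3 epithelial cells meet, and in mouse liver it has been linked to lipid handling. Mllt11, also called AF1q, was found in human leukaemia as a fusion partner of the MLL gene, is expressed in developing neurons, and has been described in human cancer cells as a cofactor of the Wnt-responsive factor TCF7. Cspg4 encodes NG2, a membrane-spanning chondroitin sulfate proteoglycan of pericytes, smooth muscle cells of vessels and oligodendrocyte precursors that binds PDGF and collagen VI.

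The deposited values were signal intensities, which were multiplied by 1 factor per array (0.937 to 1.04) to give all arrays 1 common median over the probe sets that are not controls. A floor was set at percentile 40 of all scaled values, an intensity of 76.0, and ratios are given only between arrays that both reached it. Where only the unstimulated array lay below the floor, the treated signal over the floor is given as a lower bound. All 20 cardiac myocyte markers that could be measured, among them Tnnt2, Myh6 and Actn2, were above the floor on every array. The hypertrophy genes Nppb (3.99-fold with phenylephrine and 4.57-fold with PAMH) and Rcan1 (2.73-fold and 3.47-fold) were higher than on the unstimulated array, as were Nppa (2.26-fold and 2.61-fold), Acta1 (2.14-fold and 2.38-fold) and Myh7 (1.51-fold and 1.86-fold), whose other measured probe set gave 1.13 and 1.52 on the log2 scale, while the used one was as low as 0.20 and 0.31 under other processing. Myh6 had log2 values of -0.03 with phenylephrine and 0.30 with PAMH, and its other measured probe set -0.60 and -0.08. Atp2a2 had -0.05 and 0.17, and its other measured probe sets -0.22 and -0.16 with phenylephrine and -0.25 and -0.41 with PAMH. Some scalings also turned the PAMH values of Myh6 and Atp2a2 negative (down to -0.33 and -0.29), so neither has a settled direction with PAMH. The ratio of 3′ to 5′ actin control signal, a sign of RNA integrity, was 1.44 with phenylephrine, 1.54 with PAMH and 1.72 in unstimulated cells, and its part in the results was not tested.

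The brighter Snap91 probe set and the probe sets of Ildr2 and Mllt11 were above the upper quartile of signal on both treated arrays and at least 3.74-fold brighter there than on the unstimulated array. Each of them was designed, per the annotation, on an expressed sequence tag and not on the gene's RefSeq transcript, so the link to the gene rests on that annotation. Cspg4 was above the floor on both treated arrays and just below it on the unstimulated array. A second Snap91 probe set was below the floor on all 3 arrays.

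Snap91 had a scaled intensity of 1177 with phenylephrine and 1084 with PAMH, against 201.0 in unstimulated cells. Both treated arrays were high and close to each other. The ratio to unstimulated cells was 5.85-fold with phenylephrine, a log2 ratio of 2.55, and 5.39-fold with PAMH, a log2 ratio of 2.43. The second probe set, designed on the RefSeq transcript of Snap91, had an intensity of 53.0 with phenylephrine, 10.7 with PAMH and 14.1 in unstimulated cells. All of these are below the floor, so it gives no ratio, and the higher Snap91 signal was seen with 1 of its 2 probe sets. Averaging both probe sets, with values below the floor set to the floor, an alternative added after seeing the data, gave 1.27 with phenylephrine and 1.22 with PAMH on the log2 scale.

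Ildr2 had 1150 with phenylephrine and 1174 with PAMH, against 222.9 in unstimulated cells. The 2 treated values were nearly equal and both were far above the unstimulated one. Its ratio to unstimulated cells was 5.16-fold with phenylephrine and 5.27-fold with PAMH, log2 ratios of 2.37 and 2.40. Mllt11 had 1103 with phenylephrine and 1194 with PAMH, against 295.0 in unstimulated cells. It was 3.74-fold higher with phenylephrine and 4.05-fold higher with PAMH, log2 ratios of 1.90 and 2.02. Mllt11 was the only one of the 3 whose unstimulated signal lay above percentile 75 of that array, which was 287.9.

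Cspg4 had 428.7 with phenylephrine and 200.1 with PAMH, against 70.7 in unstimulated cells, the last being below the floor. The 3 arrays were ordered from phenylephrine over PAMH to unstimulated, unlike those of the other genes, where the treated arrays lay together. With phenylephrine the signal was at least 5.64-fold above the unstimulated array, and with PAMH at least 2.63-fold. The PAMH bound was below 2-fold with a floor at percentile 50 (1.81-fold) and with an offset of 50 added before the logarithm (a log2 ratio of 0.99).

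**Figure D1:**
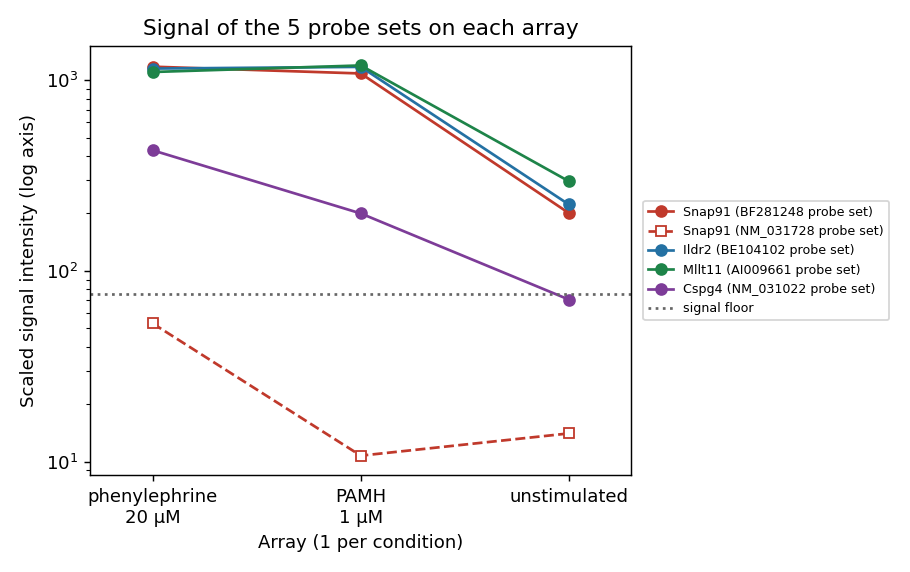
Scaled signal intensity (vertical log axis) of the 5 probe sets on the phenylephrine, PAMH and unstimulated arrays, 1 array each; filled points are the probe sets used, open squares the second Snap91 probe set, and the dotted line is the floor of 76.0. Snap91, Ildr2 and Mllt11 lie between 1084 and 1194 on both treated arrays and between 201.0 and 295.0 on the unstimulated array, while Cspg4 lies at 428.7 with phenylephrine and 200.1 with PAMH, against 70.7 unstimulated.

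These ratios were set beside those of all genes. Because the genes were picked for them, the position is a description. Snap91, Ildr2 and Mllt11 were at least 2-fold higher with phenylephrine, as were 2.62% of the 6571 genes measured on both arrays. The same 3 were at least 2-fold higher with PAMH, as were 2.05% of 6549 genes. With phenylephrine Snap91 had rank 5, Ildr2 rank 6 and Mllt11 rank 20 from the top, and with PAMH they had ranks 3, 4 and 6. The median log2 ratio of all genes was 0.07 with phenylephrine and 0.10 with PAMH. Cspg4 was set beside genes that, in the same array pair, were below the floor in unstimulated cells and above it with the treatment, whatever their signal on the other treated array: of 394 such genes with phenylephrine, 5.58% had a bound of at least 2-fold, and of 352 with PAMH, 5.68%. As a technical yardstick, the log2 ratio differed between probe sets of the same gene with an SD of 0.26 for phenylephrine and 0.28 for PAMH. The smallest of the 6 log2 ratios of Snap91, Ildr2 and Mllt11, 1.90 for Mllt11 with phenylephrine, was 7.21 times the phenylephrine SD. Mllt11 with PAMH was 7.16 times the PAMH SD. The genes were picked for these ratios, so the multiples are a description. Each SD comes from genes with several measured probe sets, which none of these 3 genes had. Neither SD holds variation between cultures.

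The 2 treated arrays can be set side by side without the unstimulated one, though the doses were 20 µM and 1 µM. The log2 ratio of phenylephrine over PAMH was 0.12 for Snap91, -0.03 for Ildr2 and -0.11 for Mllt11, each smaller than the SD between probe sets of a gene, 0.23. The Ildr2 ratio lay on either side of 0 under different scalings, from -0.03 to 0.03. For Cspg4 it was 1.10, or 2.14-fold higher with phenylephrine, at rank 16 of 6593 genes. Cspg4 was picked for its high phenylephrine signal, which enters this ratio, so its rank is a description. Of these genes 0.364% were at least 2-fold higher with phenylephrine than with PAMH. With an offset of 50 the Cspg4 ratio was 1.91-fold. With no replicates, equality of the other 3 genes between the compounds is not shown.

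**Figure D2:**
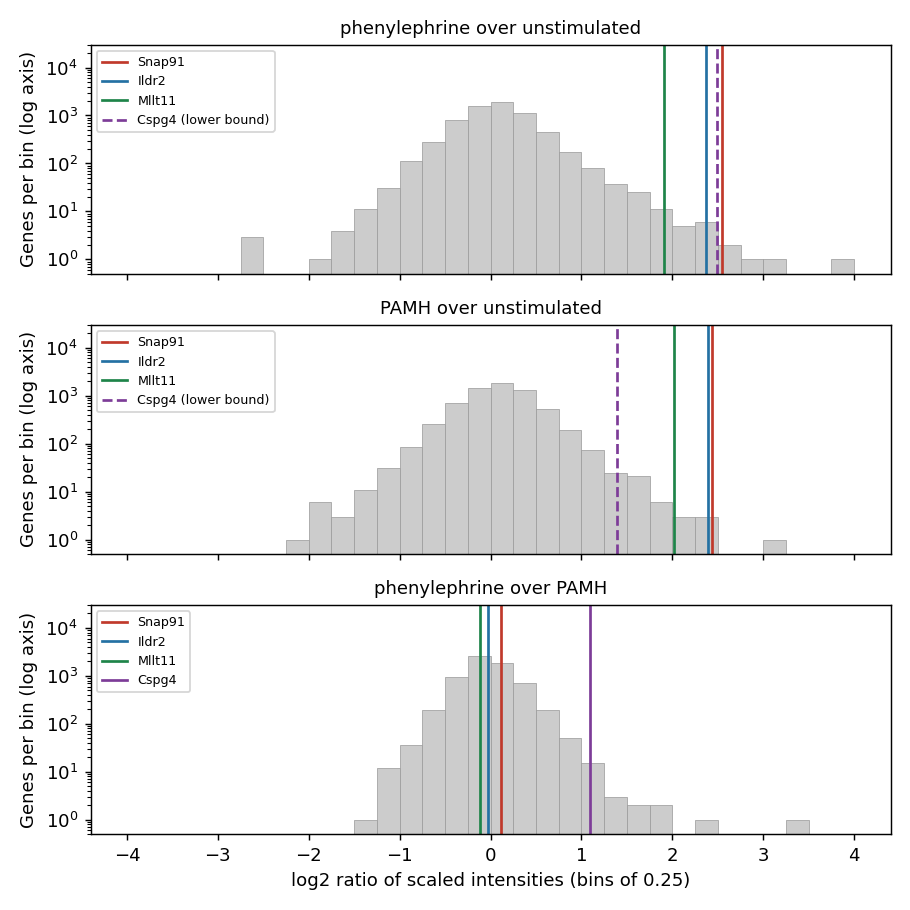
Number of genes (vertical log axis) by log2 ratio of scaled intensities in bins of 0.25, for phenylephrine over unstimulated, PAMH over unstimulated and phenylephrine over PAMH; vertical lines mark the 4 genes and dashed lines lower bounds. Snap91, Ildr2 and Mllt11 lie between 1.90 and 2.55 in the upper 2 panels and between -0.11 and 0.12 in the lowest, where Cspg4 lies at 1.10.

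The genes nearest in pattern were sought by the distance between pairs of log2 ratios over unstimulated cells, with phenylephrine and with PAMH, among the 6399 other genes above the floor on all 3 arrays. This likeness rests on 3 arrays and is a description. Snap91 and Ildr2 were each other's nearest gene, at a distance of 0.19. Next to Snap91 came Cnn1, the actin-binding protein calponin of smooth muscle (7.20-fold higher with phenylephrine and 5.60-fold with PAMH), and Ckb, the brain-type creatine kinase (4.87-fold and 3.71-fold). Next to Ildr2 came Nppb, the B-type natriuretic peptide gene, at a distance of 0.42, and Cnn1. Nearest to Mllt11 were Akip1, a protein that binds the catalytic subunit of protein kinase A, at a distance of 0.06 (3.59-fold higher with phenylephrine and 3.99-fold with PAMH), and Enah, an actin filament regulator, at 0.12 (4.06-fold and 4.01-fold), followed by Nppb at 0.20. Of the 7 Akip1 probe sets 4 were above the floor on all arrays, between 3.59-fold and 4.19-fold higher with phenylephrine, and of the 2 Enah probe sets 1 was.

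For Cspg4, whose unstimulated signal was set to the floor, as was that of each gene compared with it, a distance compares treated signals over a constant and cannot be read against the distances above. Among the 192 other genes above the floor on both treated arrays and below it on the unstimulated array, the nearest was Sypl2, a synaptophysin-like membrane protein of skeletal muscle triads, at a distance of 0.86. Sypl2 had 236.3 with phenylephrine and 205.3 with PAMH, against 58.8 in unstimulated cells. Its treated signals were closer to each other than those of Cspg4. LOC102553868 and Fgfr2, a fibroblast growth factor receptor gene, followed at 1.09 and 1.12. Fgfr2 had 197.4 with phenylephrine and 199.3 with PAMH, against 69.7 in unstimulated cells, at least 2.60-fold and 2.62-fold higher, but of its 5 probe sets this was the 1 above the floor on both treated arrays.

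The promoter windows of Ildr2, Mllt11 and Cspg4 are shown because these genes were high on the same arrays, and to let a reader compare their starts. They span 250 bases before to 50 after the start of the gene in RefSeq (build GRCr8), and for Ildr2 the first of its 4 annotated starts was taken. Capitals mark matches on either strand to the GC box GGGCGG bound by Sp factors, the MCAT element CATTCC bound by TEAD factors and known from cardiac genes, and GGACAG, the 3′ part of the RE1 element bound by the repressor REST, and no match overlaps another.
Ildr2, chr13:81051473-81051772, plus strand: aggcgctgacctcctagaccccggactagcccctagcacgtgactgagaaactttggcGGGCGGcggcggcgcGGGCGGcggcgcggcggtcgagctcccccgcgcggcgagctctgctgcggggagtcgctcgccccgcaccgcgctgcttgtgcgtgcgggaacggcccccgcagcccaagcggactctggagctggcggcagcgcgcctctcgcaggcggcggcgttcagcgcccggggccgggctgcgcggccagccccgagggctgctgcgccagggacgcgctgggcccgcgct
Mllt11, chr2:185493912-185494211, minus strand: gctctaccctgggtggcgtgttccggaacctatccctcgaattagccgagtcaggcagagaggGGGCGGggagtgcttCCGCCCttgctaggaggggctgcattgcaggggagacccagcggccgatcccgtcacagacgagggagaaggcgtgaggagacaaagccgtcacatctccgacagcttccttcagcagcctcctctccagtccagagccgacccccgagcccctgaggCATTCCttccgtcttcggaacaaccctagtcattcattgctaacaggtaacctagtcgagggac
Cspg4, chr8:66160692-66160991, plus strand: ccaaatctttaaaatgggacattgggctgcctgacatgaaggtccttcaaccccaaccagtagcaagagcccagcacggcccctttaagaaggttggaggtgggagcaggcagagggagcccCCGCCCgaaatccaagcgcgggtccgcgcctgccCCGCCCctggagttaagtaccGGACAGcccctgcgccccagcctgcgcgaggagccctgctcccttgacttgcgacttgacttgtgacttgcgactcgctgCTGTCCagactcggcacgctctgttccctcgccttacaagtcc

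Each window held 2 GC boxes, a motif that 33.1% of 33465 promoter windows of this length contain. GC content was 78.3% for Ildr2, 61.3% for Mllt11 and 62.0% for Cspg4, against a median of 51.7% and an upper quartile of 60.3% over all windows. Mllt11 had 1 MCAT match, present in 14.2% of all windows, and Cspg4 had 2 GGACAG matches, present in 21.7%. The AP-1 motif TGANTCA (7.33% of all windows) and the CArG box (1.64%) had no match in the 3 windows, and the E-box CANNTG (72.1%) had 1, in Ildr2. These are matches of letters only.

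The genes that work with Snap91 at coated pits did not share its size of difference. Snap91 was picked for its high treated signal and these genes were not, so the contrast is a description. Of 28 clathrin coat and endocytosis genes measured with phenylephrine, 2 were at least 1.5-fold higher and 1 lower, and their median was 0.09 on the log2 scale. Over all genes 8.9% were that much higher and 4.54% lower. With PAMH, 3 of 27 were higher and 1 was lower (log2 median 0.20), and over all genes 9.31% were higher and 4.17% lower. Dab2, a clathrin adaptor for lipoprotein receptors, had 1080.5 with phenylephrine and 1006 with PAMH, against 514.9 in unstimulated cells. It was 2.10-fold and 1.95-fold higher. Hip1r, which links clathrin coats to actin, was 1.58-fold higher with phenylephrine and 1.78-fold with PAMH. The sorting nexin Snx18 was 1.56-fold higher with PAMH, and its other measured probe set had a log2 ratio of 1.11. Hip1 was not counted as higher, since its brightest probe set had a log2 ratio of 0.13 with phenylephrine. Its other measured probe sets had 0.61, 0.82 and 0.57 with phenylephrine, and -0.46, 0.13 and -0.02 with PAMH. Eps15, an endocytic scaffold, was 1.54-fold lower with phenylephrine, although its other measured probe set gave -0.03 on the log2 scale, and the adaptor kinase Aak1 was 1.77-fold lower with PAMH. The Snap91 relative Picalm was not measured by a probe set with 1 symbol.

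Of the genes of synaptic vesicles and membrane fusion, none of 19 was higher with phenylephrine and 1 was lower (log2 median -0.14). With PAMH 1 of 18 was higher and none was lower (log2 median 0.10). The shares over all genes were 8.9% higher and 4.54% lower with phenylephrine, and 9.31% and 4.17% with PAMH. The higher one was Syp, the vesicle protein synaptophysin, with 130.2 with phenylephrine and 211.0 with PAMH, against 94.0 in unstimulated cells, 2.25-fold higher with PAMH. The lower one was the vesicle SNARE Vamp1, 1.51-fold lower with phenylephrine, with its other measured probe set at a log2 ratio of -0.12. Snap25, the SNARE of nerve endings, was below the floor on all 3 arrays.

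Snap91 and Mllt11 are best known from neurons, so neuronal markers were read beside them. Of 17 such markers on the arrays, 15 were below the floor on every array, among them Snap25, Tubb3, Map2, Nefl, Stmn2 and Rbfox3. The exceptions were Uchl1, with 344.6 with phenylephrine and 308.1 with PAMH, against 238.1 in unstimulated cells, and Dpysl3, above the floor with phenylephrine alone at 94.0. The summed signal of the 17 was 1008 with phenylephrine and 913 with PAMH, against 799 in unstimulated cells. Marker sums here and below include the markers below the floor. Uchl1 was the 1 neuronal marker with a ratio, and it was past 1.5-fold with neither compound. Of 12 Schwann cell and oligodendrocyte lineage markers, 8 were below the floor on every array, among them Sox10, Olig1 and Mbp, and their sum was 1031 with phenylephrine and 1075 with PAMH, against 1072 in unstimulated cells.

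Among the angulin and tight junction genes that could be set beside Ildr2, 3 of 8 were past 1.5-fold with phenylephrine, all of them higher (log2 median 0.32). With PAMH 2 of 9 were, both higher (log2 median -0.02). Among all genes 8.9% were that much higher with phenylephrine and 9.31% with PAMH. Magi3, a junctional scaffold, was 1.64-fold higher with phenylephrine and 1.82-fold with PAMH, but its other measured probe set gave 0.29 and 0.41 on the log2 scale, below 1.5-fold. Cgnl1, the junction protein paracingulin, was 1.52-fold higher with phenylephrine, and Tjp1, which encodes ZO-1, was 1.51-fold higher with phenylephrine and 1.62-fold with PAMH. The angulin gene Lsr had 125.6 with phenylephrine, 76.0 with PAMH and 52.7 in unstimulated cells, so it was above the floor with phenylephrine and at it with PAMH, and Ildr1 was not measured by a probe set with 1 symbol.

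Of 25 genes of TCF and β-catenin signalling, read beside Mllt11, phenylephrine had 5 higher and 3 lower (log2 median -0.08). PAMH had 3 higher and 3 lower of 24 (log2 median -0.07). For this list and the next, the shares over all genes were 8.9% higher and 4.54% lower with phenylephrine, and 9.31% and 4.17% with PAMH. The Wnt receptor gene Fzd2 had 520.1 with phenylephrine and 505.1 with PAMH, against 158.0 in unstimulated cells. It was 3.29-fold and 3.20-fold higher. Sfrp1, a secreted Wnt-binding protein, was 1.99-fold higher with phenylephrine and 1.96-fold with PAMH. The receptor gene Fzd1 was 1.93-fold lower with phenylephrine and 1.66-fold lower with PAMH, Dkk3, of the Dickkopf family, 1.75-fold lower with phenylephrine, and Ccn4, a matricellular Wnt target, 1.63-fold lower with PAMH. Tcf7 itself was below the floor on all 3 arrays. None of 18 measured genes of MLL and its other fusion partners was 1.5-fold higher with either compound. With phenylephrine 3 of these 18 were lower (median log2 ratio -0.17), the lowest being the forkhead factor gene Foxo3 (1.59-fold) and Eps15, which is on both lists. With PAMH 1 of 18 was lower (median -0.09), the forkhead factor gene Foxo4 (1.53-fold).

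Of 18 genes for ligands and partners of NG2, phenylephrine had 2 higher and 1 lower (log2 median 0.13), and PAMH had 1 higher and 1 lower of 17 (log2 median 0.18). For this list and the next, the shares over all genes were 8.9% higher and 4.54% lower with phenylephrine, and 9.31% and 4.17% with PAMH. Fgfr2 is on this list but was not counted, since its unstimulated signal was below the floor. Its bounds were 2.60-fold higher with phenylephrine and 2.62-fold with PAMH, by 1 of its 5 probe sets. Uncounted genes also went the other way. Pdgfra had 61.4 with phenylephrine and 53.7 with PAMH, both below the floor, against 103.7 in unstimulated cells. Col6a3 had 165.2 with phenylephrine and 72.6 with PAMH, the latter below the floor, against 155.2 in unstimulated cells, and was not counted with PAMH. Bcar1, the adhesion adaptor p130Cas, had 277.2 with phenylephrine and 180.1 with PAMH, against 99.4 in unstimulated cells. It was 2.79-fold and 1.81-fold higher, so that, as for Cspg4, the phenylephrine array was the highest and the PAMH array lay between. Lgals3, the NG2-binding lectin galectin 3, was 1.83-fold higher with phenylephrine. Col6a1, a chain of the NG2 ligand collagen VI, was 1.69-fold lower with phenylephrine and 1.76-fold lower with PAMH. Among proteoglycan core and chondroitin sulfate synthesis genes, phenylephrine had 2 higher and 3 lower of 21 (log2 median 0.03), and PAMH had 1 higher and 4 lower of 20 (log2 median -0.03). The glypican Gpc3 was 2.25-fold lower with phenylephrine and 2.58-fold lower with PAMH, Gpc6 2.07-fold lower with phenylephrine, and Dcn, which encodes decorin, 1.85-fold lower with PAMH. Hspg2, which encodes perlecan, was 1.62-fold higher with phenylephrine. Vcan, which encodes versican, was 1.52-fold higher with phenylephrine, with its other measured probe sets at log2 ratios of 0.16 and 0.48. Sdc3, which encodes syndecan 3, was 1.74-fold higher with PAMH, with its other measured probe set at a log2 ratio of 0.30. The genes named from these lists whose used probe set had a measured ratio past 1.5-fold were read under each processing alternative. Dab2, Fzd1, Fzd2, Sfrp1, Col6a1, Bcar1 and Gpc3 (with both compounds) stayed past 1.5-fold under every alternative that gave a value. So did Lgals3 and Gpc6 (with phenylephrine) and Hip1r, Syp and Dcn (with PAMH). The others fell below it under at least 1 alternative, with no change of sign.

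**Figure D3:**
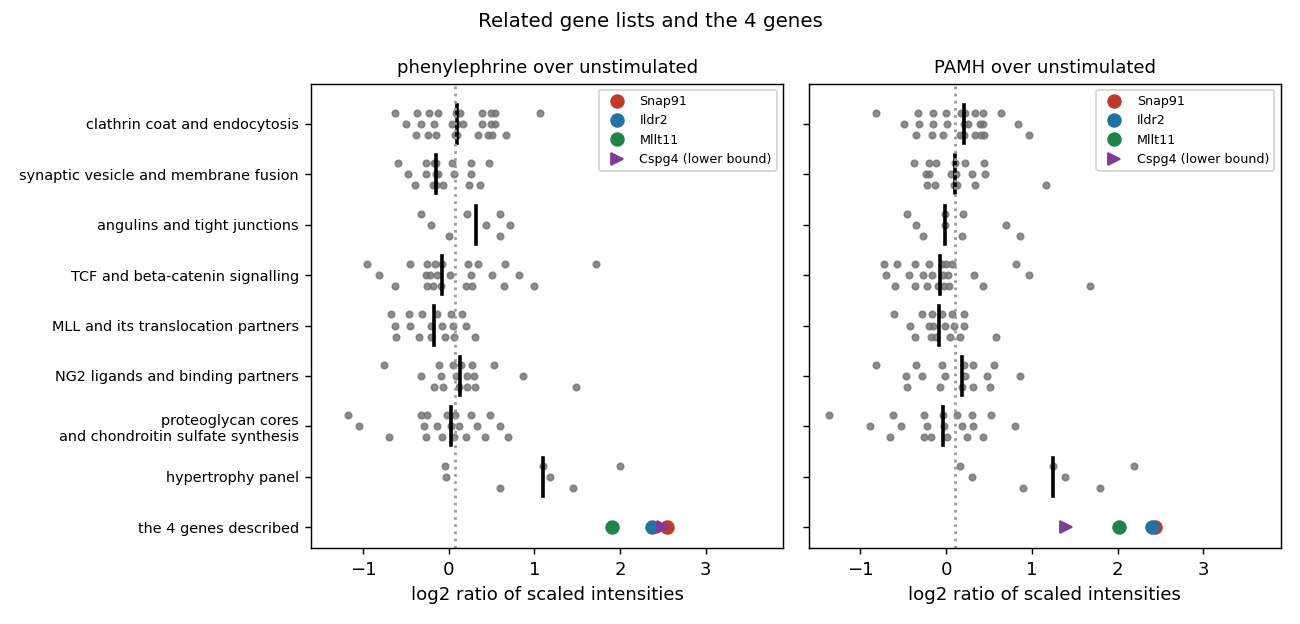
Log2 ratios of scaled intensities over unstimulated cells with phenylephrine (left) and PAMH (right); each grey point is a measured gene of a list, black bars are list medians, the dotted line is the median of all genes (0.07 and 0.10), and coloured marks are the 4 genes, with a triangle for the lower bound of Cspg4. Medians of the 7 lists related to the 4 genes lie between -0.17 and 0.32, while the 4 genes lie at 1.40 or more. The 4 genes were picked for high signal on a treated array, so this contrast is a description.

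Since NG2 marks vessel wall cells, their markers were read beside Cspg4. Of 10 pericyte markers on the arrays, 5 were below the floor on every array, among them Rgs5, Kcnj8 and Vtn, and the sum of the 10 was 1588 with phenylephrine and 1784 with PAMH, against 1434 in unstimulated cells. Pdgfrb, the PDGF receptor of pericytes, had 135.5 with phenylephrine and 136.5 with PAMH, against 110.3 in unstimulated cells. Mcam was 1.61-fold higher with phenylephrine, and Abcc9, a channel subunit that myocytes also express, 1.59-fold lower, with its other measured probe set at a log2 ratio of 0.01. Of 9 smooth muscle markers, 6 were past 1.5-fold with phenylephrine, all of them higher (log2 median 0.97), where 8.9% of all genes were that much higher, and with PAMH 5 were higher and 1, Myh11, was lower (log2 median 0.64), where 9.31% and 4.17% of all genes were. They did not all share the order of Cspg4, since Acta2 was further above unstimulated cells with PAMH (2.86-fold) than with phenylephrine (2.44-fold), and Mylk and Smtn were below unstimulated cells, by 1.23-fold and 1.28-fold with phenylephrine and by 1.49-fold and 1.14-fold with PAMH. Their sum over the 10 markers on the arrays was 19275 with phenylephrine and 16085 with PAMH, against 8621 in unstimulated cells. Cnn1 led them, followed with phenylephrine by Synpo2 (2.60-fold), Des (2.57-fold), which myocytes also express, and Acta2. Averaged over its 3 probe sets with values below the floor set to it, Synpo2 had log2 ratios of 0.46 with phenylephrine and 0.39 with PAMH, below 1.5-fold. Myh11, the smooth muscle myosin, had 281.6 with phenylephrine and 178.4 with PAMH, against 278.1 in unstimulated cells. Of 12 fibroblast markers, 1 was at least 1.5-fold lower with phenylephrine, Dcn (1.62-fold), where 4.54% of all genes were, and none was that much higher. With PAMH 6 of 12 were that much lower, where 4.17% of all genes were, and none was that much higher. The lower ones were led by Postn (3.40-fold lower), Col3a1 (2.09-fold), Lum (2.06-fold) and Dcn (1.85-fold). The other measured Ddr2 probe set, not counted here, had log2 ratios of -0.74 with phenylephrine and -0.67 with PAMH. The sum over 16 fibroblast markers was 22578 with phenylephrine and 19655 with PAMH, against 22488 in unstimulated cells. In bulk cultures, a change in the share of a cell type and a change in RNA per cell cannot be told apart, and the part of these cells in the Cspg4 signal was not tested. Endothelial markers were 1.5-fold higher or lower in none of 4 genes with phenylephrine and none of 2 with PAMH. Markers below the floor on either compared array have no ratio and were not counted. Of the 12 on the arrays, 5 were above the floor with phenylephrine, 2 with PAMH and 4 in unstimulated cells. The sum of the 12 was 928 with phenylephrine and 602 with PAMH, against 874 in unstimulated cells. The other measured Egfl7 probe set, not counted here, had log2 ratios of 0.54 with phenylephrine and 0.69 with PAMH, the latter past 1.5-fold. Macrophage markers were past it in 1 of 3 with phenylephrine, Cd74 (1.51-fold lower), and none of 3 with PAMH. Over all genes 8.9% were that much higher and 4.54% lower with phenylephrine, and 9.31% and 4.17% with PAMH.

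**Figure D4:**
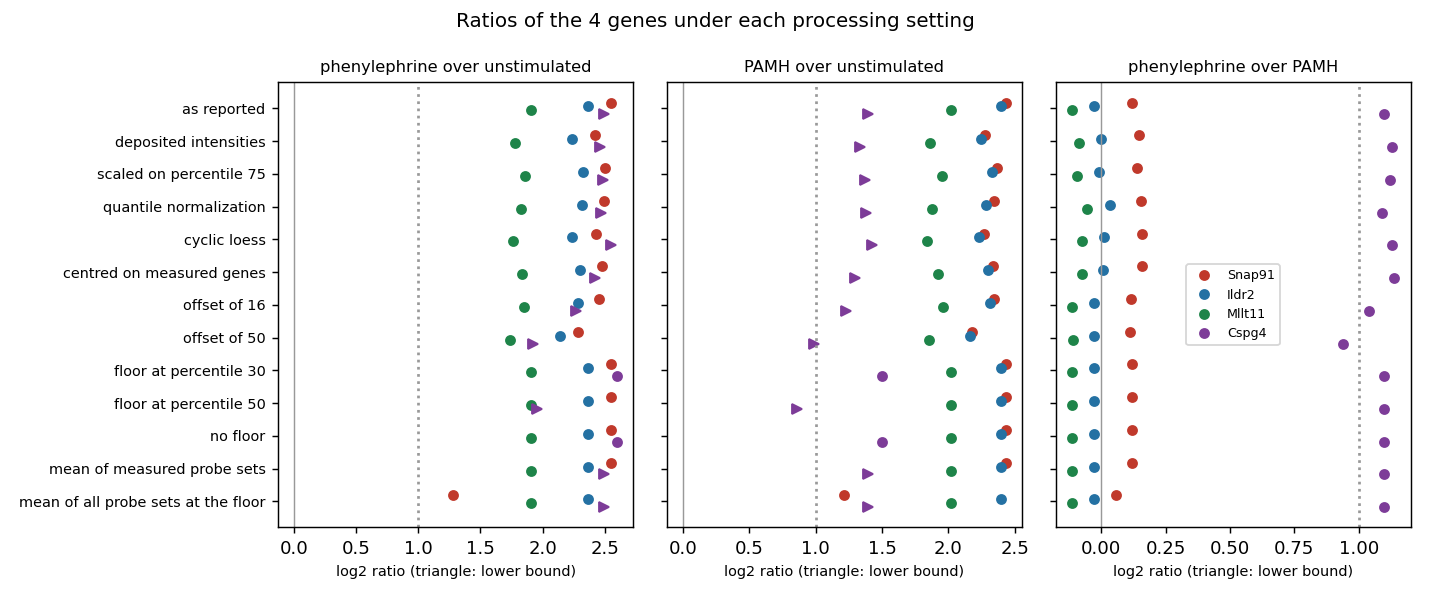
Log2 ratios of the 4 genes (horizontal axis) under each processing setting (rows), for phenylephrine over unstimulated, PAMH over unstimulated and phenylephrine over PAMH; triangles are lower bounds and the dotted line marks 2-fold. Ildr2 and Mllt11 stay between 1.74 and 2.40 in the 2 left panels, Snap91 drops to 1.27 and 1.22 when its second probe set is averaged in, and the Cspg4 bound with PAMH drops to 0.86 with a floor at percentile 50.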

How the data were processed

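The deposited table holds signal intensities on a linear scale for 15923 probe sets on 3 arrays; the software that made them is not given in the sources used here. Per the labels, total RNA of cultured rat ventricular myocytes was measured. The trimmed mean after removal of 2% at each end was 250 on each array. Of 15866 non-control probe sets, 12783 carried 1 gene symbol in the platform annotation and were used; symbols were updated through the gene identifier (12748 found), giving 10411 genes, each represented by its brightest probe set. Arrays were scaled to equal medians, and ratios are log2 values computed from the scaled intensities. With 1 array per condition there were no tests, and the array number bounds the precision. Genes were counted at 2-fold, and list members at 1.5-fold. Named genes were the 4 genes, up to 2 list members highest and 2 lowest past 1.5-fold, up to 4 markers per list, a hypertrophy panel and the 3 nearest genes in pattern. Defining markers and relatives below the floor, with Snx18, Hip1, Uchl1, Dpysl3, Pdgfra, Pdgfrb, Col6a3, Ddr2, Egfl7, Mylk, Smtn and Myh11, were chosen after their values were seen. Members and lists were chosen with earlier results of these data known. The ratio script was tested on simulated data. Python 3.11.15, numpy 2.4.6, pandas 2.3.3, R 4.3.3 and limma 3.58.1 were used.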

Additional observations from a re-analysis of the deposited data

How the results depend on the processing

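The comparisons came with 11 alternatives; 1 more, the average of all probe sets at the floor, was added after seeing the data. Under all 12, Ildr2 and Mllt11 stayed within the technical SD of their reported log2 ratios, between 1.74 and 2.40. Snap91 did so under 11 and had 1.27 with phenylephrine and 1.22 with PAMH under the added one. The Cspg4 bound was 1.93 with phenylephrine and 0.99 with PAMH at an offset of 50, and 1.96 and 0.86 with the floor at percentile 50; with no floor it was 6.06-fold higher with phenylephrine and 2.83-fold with PAMH. The count of genes at least 2-fold lower with phenylephrine was 50 as reported, 92 on deposited intensities, 23 at an offset of 50 and 477 with no floor, where 675 were higher. With PAMH, 134 genes were at least 2-fold higher as reported, 75 on deposited intensities, 86 after quantile normalization, 85 after cyclic loess and 634 with no floor, and 52 were lower as reported, 92 on deposited intensities, 30 at an offset of 50 and 602 with no floor. For phenylephrine over PAMH, 24 genes were higher as reported, 10 at an offset of 50, 45 with the floor at percentile 30 and 570 with no floor, and 13 were lower as reported, 8 when centred on measured genes, 4 and 2 at offsets of 16 and 50, 20 and 7 with floors at percentiles 30 and 50, and 443 with no floor. Having no floor adds dim genes by construction. By construction too, another floor changes which genes have a ratio, and an added offset makes each ratio smaller in size. Using deposited intensities or centring moves the log2 ratios of a comparison by 1 constant. The cause of the shifts after quantile normalization and cyclic loess was not tested. Of 192 list medians recomputed, 188 stayed within the technical SD, and the hypertrophy panel had 0.80 with either compound after quantile normalization, and 0.74 with phenylephrine and 0.78 with PAMH after cyclic loess. No paired analysis was possible because each condition had 1 array.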

Other observations

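Some relatives of the 4 genes were below the floor in unstimulated cells and above it with phenylephrine, and were picked here after their values were seen. Over the whole series 394 genes had this pattern, of which 5.58% had a bound of at least 2-fold. The bounds of Ocln, Dnm2, Srgn and Lsr were below 2-fold, and the share of the 394 genes at 1.5-fold was not computed. Fgfr2, described above, had this pattern too, and was also above the floor with PAMH. Ocln, which encodes the tight junction protein occludin, had 139.6 with phenylephrine and 81.8 with PAMH, against 59.2 in unstimulated cells, and was at least 1.84-fold higher with phenylephrine, by the brighter of its 2 probe sets. Dnm2, which encodes the dynamin that pinches off coated vesicles in most cells, had 119.7 with phenylephrine and 34.7 with PAMH, against 29.0 in unstimulated cells, and was at least 1.57-fold higher with phenylephrine. Srgn, which encodes the intracellular proteoglycan serglycin, had 124.7 with phenylephrine and 52.7 with PAMH, against 62.6 in unstimulated cells, and was at least 1.64-fold higher with phenylephrine. Lsr was at least 1.65-fold higher with phenylephrine. The signals of Ocln, Dnm2, Srgn and Lsr are near the floor. Other relatives were above the floor in unstimulated cells and below it with a treatment, and were also picked after their values were seen. Col6a3 and Pdgfra, described above, were among them. With PAMH, Myc had 58.8 against 132.5 in unstimulated cells, Bin1 70.0 against 112.6 and Tle3 40.4 against 89.5. With phenylephrine Myc, Bin1 and Tle3 were above the floor.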
